A study of Mus musculus with 28 samples.

Results

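The Dlk1-Dio3 locus on mouse chromosome 12 was followed here as 6 genes, Dlk1, Rtl1, Dio3, Meg3, Rian and Mirg, in RNA-seq libraries from fibroblasts on the way to induced pluripotent stem cells. The members were picked by name, 6 of the 50600 genes in the expression table, and the choice was made with results of these same libraries known, although which values led to it is not recorded. Levels and differences of the members are therefore given as descriptions, without p-values, and counts of calls among them carry no weight as tests.

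The locus is imprinted, which means that each gene is transcribed mainly from the chromosome of one parent. Dlk1 (a membrane protein related to Notch ligands), Rtl1 (a retrotransposon-derived protein of placenta and muscle) and Dio3 (the deiodinase that inactivates thyroid hormone) are made from the paternal copy, whereas the noncoding RNAs Meg3, Rian and Mirg are made from the maternal copy and carry a large cluster of snoRNAs and microRNAs. A methylated region upstream of Meg3 sets this pattern, and in mouse induced pluripotent stem cells the maternal transcripts are known for being silenced in some lines and kept in others. The table holds no allele information, so parental origin was not measured.

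The study asked how p38 inhibition before or during the induction of reprogramming acts on mouse embryonic fibroblasts (MEFs), a culture in which whole-genome duplication arises spontaneously. There were 28 mouse libraries in 14 groups of 2. All came from embryo fibroblasts labelled as genotype WT, which the study's methods describe as carrying an Oct4-GFP reporter from a cross between a reporter strain of mixed background and 129 mice, and all induction cultures received Oct4, Klf4 and Sox2 (OKS) by retrovirus in iCD1 medium. The fibroblast groups were MEFs without the inhibitor and MEFs cultured with the p38 inhibitor (p38i, SB203580 in the study's methods). The former are titled ctr and called untreated here, and their titles do not say whether DMSO was given. On days 1, 3, 5 and 7 of OKS induction there were control cultures, labelled ctr and given DMSO according to the methods. Beside them were cultures with the inhibitor during induction (p38i) and cultures whose fibroblasts had received it before induction (pre-p38i). The methods describe mid-gestation embryos of either sex, and nothing in the labels says that the 2 replicates of a group were separate cultures, so their spread may be technical.

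Each value is a whole number that was read as TPM (a gene's share of a library's transcripts, corrected for gene length) rounded down, so a printed 3 stands for anything from 3 up to 4. Library totals ran from 991287 to 992537, and 12454 to 14170 genes per library were at 1 or more. The number of reads is unknown, and no counting interval could be given. All 15 fibroblast markers were detected, with summed values of 18606 to 19328 in untreated MEFs, and no library stood apart from its replicate (Pearson's r across genes of 0.993 to 0.996). The p-values printed for other genes come from limma on log2(value + 1) across all 14 groups, adjusted by the Benjamini-Hochberg method over 13230 genes, and a gene was called at an adjusted p under 0.05. With a mean value of 0.75, Rtl1 was below the minimum mean of 1, which left 5 of the 6 members in the fit.

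The sequences before the transcription starts are shown for Dlk1 and Dio3, the outer genes of the locus whose levels moved most, and for Meg3, the first of the maternal RNAs. Each line gives the 250 bases before the RefSeq start on GRCm38.p6, plus strand, 5′ to 3′. Capitals mark the letters of a TATA box (TATAAA) or a GC box (GGGCGG) on either strand.
Dlk1, chr12:109452573-109452822: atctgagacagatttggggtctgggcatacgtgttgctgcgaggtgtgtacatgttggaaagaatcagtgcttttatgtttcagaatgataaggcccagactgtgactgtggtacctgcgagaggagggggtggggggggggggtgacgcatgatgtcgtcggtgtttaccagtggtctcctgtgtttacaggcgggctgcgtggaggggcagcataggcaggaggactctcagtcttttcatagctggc
Dio3, chr12:110278980-110279229: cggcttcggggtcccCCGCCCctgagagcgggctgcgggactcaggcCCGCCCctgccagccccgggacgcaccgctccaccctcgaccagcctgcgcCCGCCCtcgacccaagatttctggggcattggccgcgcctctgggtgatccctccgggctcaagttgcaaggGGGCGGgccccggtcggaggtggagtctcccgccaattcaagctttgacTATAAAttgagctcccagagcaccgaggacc
Meg3, chr12:109540746-109540995: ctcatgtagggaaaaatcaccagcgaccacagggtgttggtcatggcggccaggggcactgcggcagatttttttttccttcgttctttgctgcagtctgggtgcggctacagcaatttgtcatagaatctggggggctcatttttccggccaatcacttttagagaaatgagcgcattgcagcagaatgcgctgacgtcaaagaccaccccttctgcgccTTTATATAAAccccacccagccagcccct

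The Dio3 window held 1 TATA box, 31 bases before the start, 4 GC boxes and 21 CpG dinucleotides, with a GC content of 69.6%. The Dlk1 window held neither motif and 8 CpGs. In the Meg3 window TATAAA was read on both strands in 1 overlapping stretch, 25 bases before the start, and there were 10 CpGs and no GC box. Over 32841 RefSeq promoter windows of the same length, 12.4% held TATAAA, 32.7% held GGGCGG, and the median number of CpGs was 6. The windows of Rian and Mirg held neither motif. For Dio3 the RefSeq start lay 162 bases inside the gene as the expression table drew it, and for Mirg it lay 5217 bases inside. A match of letters is a description and not a bound site.

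The microRNAs of the cluster are shown for the place they take between the members. RefSeq lists at least 58 hairpins between Dlk1 and Dio3, with 113 mature names and 104 distinct seeds (bases 2 to 8). Of the hairpins, 6 lie opposite Rtl1, 14 within Mirg and 3 within Rian, and those of miR-770 and miR-1906 lie within Meg3. The following mature sequences are examples from the strand opposite Rtl1 (miR-127-3p, miR-136-5p), from Rian (miR-370-3p) and from Mirg (miR-410-3p), with the seed in capitals.
miR-127-3p: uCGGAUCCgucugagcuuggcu
miR-136-5p: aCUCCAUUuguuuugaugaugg
miR-370-3p: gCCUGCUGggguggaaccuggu
miR-410-3p: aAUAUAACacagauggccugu

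None of these RNAs was measurable in these libraries, which were made from RNA enriched with oligo-dT beads. All 67 microRNA genes and all 23 snoRNA genes between Dlk1 and Dio3 were listed at 0 in every library. Across the whole table, 0 of 2202 microRNA genes reached a mean of 1. What follows about the maternal side therefore concerns the long host RNAs alone.

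Dlk1 (ENSMUSG00000040856, chr12:109452823-109463336 on GRCm38, plus strand) was high in fibroblasts and low throughout induction. Untreated MEFs had values of 74 and 78. MEFs with the inhibitor had 182 and 179, well above both untreated libraries. This was a 2.38-fold difference between means of 76.0 ± 2.83 and 180.5 ± 2.12 (SD, n = 2), or 1.24 on the log2 scale (SE 0.18). It made Dlk1 the 1 member of 5 called in this comparison, in which 17.9% of all genes tested were called.

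After 1 day of OKS induction Dlk1 stood at 13 and 13 in the DMSO control, 5.85-fold below untreated MEFs. It went on falling to 7 and 7 on day 3 and to 3 and 4 on day 5, and was at 5 and 6 on day 7, a small rise that was lost without day 5 replicate 1 or day 7 replicate 2. The pre-p38i cultures began from a higher level and were still higher on day 1, with 34 and 45, whereas the p38i cultures had 13 and 16. The day 1 difference from the control was 1.52 in pre-p38i (SE 0.18) and 0.14 in p38i (SE 0.18), and in p38i the groups overlapped. By day 5 the replicates of all 3 conditions held 3 and 4.

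Later differences of Dlk1 were small in level. On day 3 the p38i libraries, 4 and 4, were below the control's 7 and 7 (log2 difference -0.68), and the pre-p38i libraries, 7 and 10, overlapped it. On day 7 p38i had 9 and 9 against 5 and 6 (log2 difference 0.63), and pre-p38i had 6 and 8, which overlapped the control. The day 3 call in p38i was lost under quantile normalization. The day 7 call was lost when control replicate 1 was left out and when only the 2 groups were fitted. From fibroblasts to day 7 the level dropped 13.8-fold in the control, 8.44-fold in p38i and 25.8-fold in pre-p38i, the last counted from inhibitor-treated MEFs.

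Markers of other cell types were read beside Dlk1 in the fibroblasts. Of 10 macrophage markers tested, 7 fell with the inhibitor and none rose, and the summed value of the set of 12 was 283 to 294 in untreated and 191 to 198 in inhibitor-treated MEFs. Of 15 fibroblast markers 9 fell and 1 rose, and their sum with the inhibitor was 14305 to 14473. In the sets of cartilage and muscle 1 gene carried the sum. Col2a1, a cartilage collagen, had 211 and 198 without and 413 and 413 with the inhibitor, and it was the 1 of 3 chondrocyte markers tested that was called. Acta1, skeletal muscle actin, had 176 and 180 against 43 and 46 and was the 1 of 4 muscle markers tested that was called, while 8 of the 14 muscle markers, Myod1, Myog, Myf5 and Myf6 among them, were at 0 in every library and Mymk was not analysed here. Of 4 adipocyte markers tested 1 rose, Lpl having 15 and 12 against 27 and 22, and Adipoq, Cidec, Lep, Plin1 and Retn were at 0 throughout. The part of these shifts in the Dlk1 values was not tested, and in bulk RNA fewer expressing cells cannot be told apart from less RNA per cell.

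**Figure D1:**
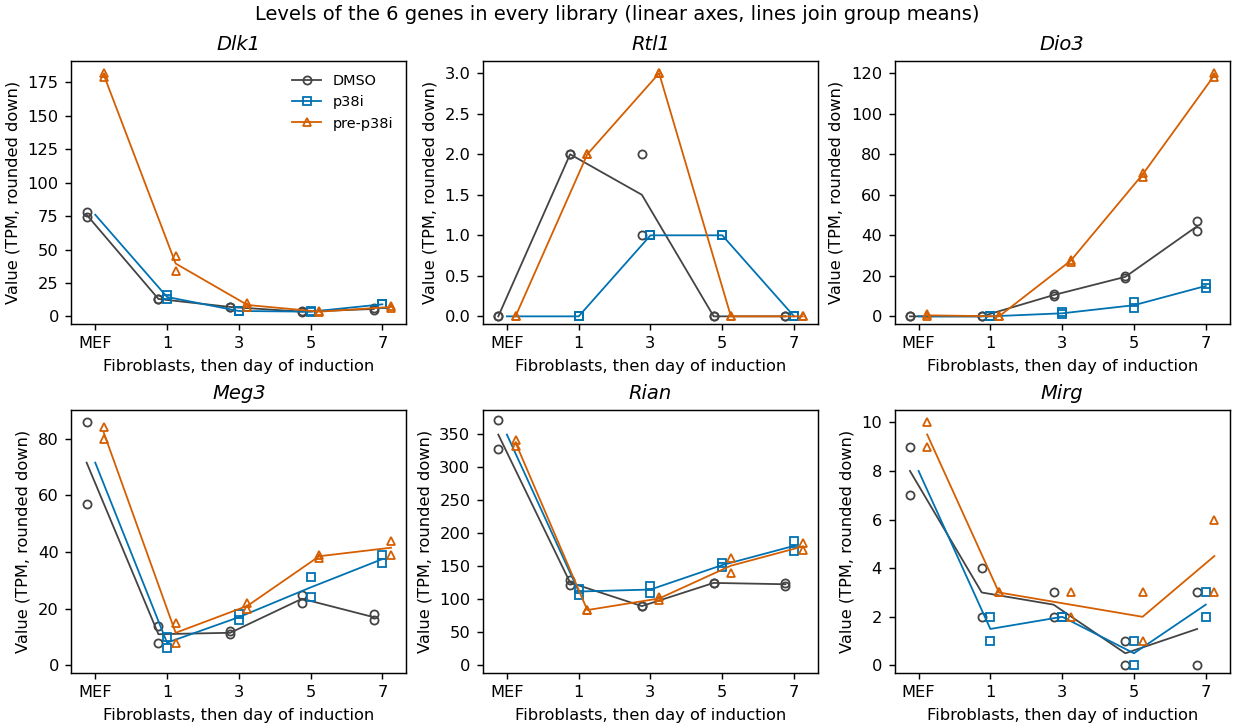
Values (TPM rounded down, linear axes) of the 6 genes in each of the 28 libraries, by day of induction after the fibroblast stage (MEF). Points are libraries and lines join the means of 2 libraries for DMSO, p38i and pre-p38i cultures, with the p38i line starting from untreated and the pre-p38i line from inhibitor-treated MEFs. Dlk1 falls from as high as 182 to at most 10 by day 3 while Dio3 climbs from 0 to 120 in pre-p38i, 47 in DMSO and 16 in p38i.

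Rtl1 (ENSMUSG00000085925, chr12:109589194-109600330, minus strand) was at the edge of detection. No library exceeded 3. It was listed at 0 in all 4 fibroblast libraries. On day 1 both replicates read 2 in the control and in pre-p38i cultures, and both read 0 in p38i cultures. On day 3 pre-p38i had 3 and 3, the control 2 and 1, and p38i 1 and 1. On day 5 only p38i was above 0, at 1 and 1, and on day 7 all 6 libraries were at 0. The transient signal on days 1 and 3 was thus present in all 3 conditions by day 3, at levels where rounding decides the order. No source used here says that the kit or the counting kept strand, so these reads cannot be told apart from those of the maternal transcript that runs opposite Rtl1.

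Dio3 (ENSMUSG00000075707, chr12:110279068-110281097, plus strand, a single exon of 2030 bases) was at or near 0 in fibroblasts and rose during induction. It was listed at 0 in both untreated MEF libraries, at 1 and 0 with the inhibitor, and at 0 in all 6 libraries of day 1. In the control it then reached 11 and 10 (day 3), 20 and 19 (day 5), and 42 and 47 (day 7). Each step up was called, with log2 differences of 3.52 from day 1 to day 3, 0.83 to day 5 and 1.15 to day 7 (SE 0.25 each). The step to day 5 was lost in 6 of 10 alternative fits, among them each one that left out a library of day 3 or day 5.

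The 2 windows of inhibition took Dio3 in opposite directions from the control. With pretreatment the values on days 3, 5 and 7 were 27 and 28, 71 and 69, and 118 and 120, above both control libraries on each of those days. With the inhibitor during induction they were 1 and 2, then 7 and 4, then 16 and 14, below both control libraries on each of those days. Pretreated cultures were thus 2.62-fold, 3.59-fold and 2.67-fold above the control (log2 differences 1.31, 1.79 and 1.40), and cultures under the inhibitor were 7-fold, 3.55-fold and 2.97-fold below it (-2.23, -1.70 and -1.51, SE 0.25 throughout). The 7-fold is loose, because rounding down leaves the p38i mean of day 3 anywhere from 0.130 to 0.238 of the control mean.

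Set directly against each other, the p38i libraries were 18.3-fold, 12.7-fold and 7.93-fold below pre-p38i on days 3, 5 and 7. These 3 calls held in every alternative fit. For day 3, rounding down leaves the p38i mean anywhere from 0.053 to 0.091 of the pre-p38i mean. With a pseudocount of 0.1 in place of 1, the calls against the control on day 7 in both conditions and on day 3 in pre-p38i were lost, although the direction stayed. The p38i calls against the control on days 3 and 5 were lost when only the 2 groups were fitted, again with the same direction. In the order of the 14 group means, the first 8 places, from pre-p38i day 7 at 119 down to p38i day 5 at 5.5, went to groups whose libraries did not overlap their neighbours. The 6 groups from p38i day 3 downward had means between 0 and 1.5 and overlapped their neighbours.

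**Figure D2:**
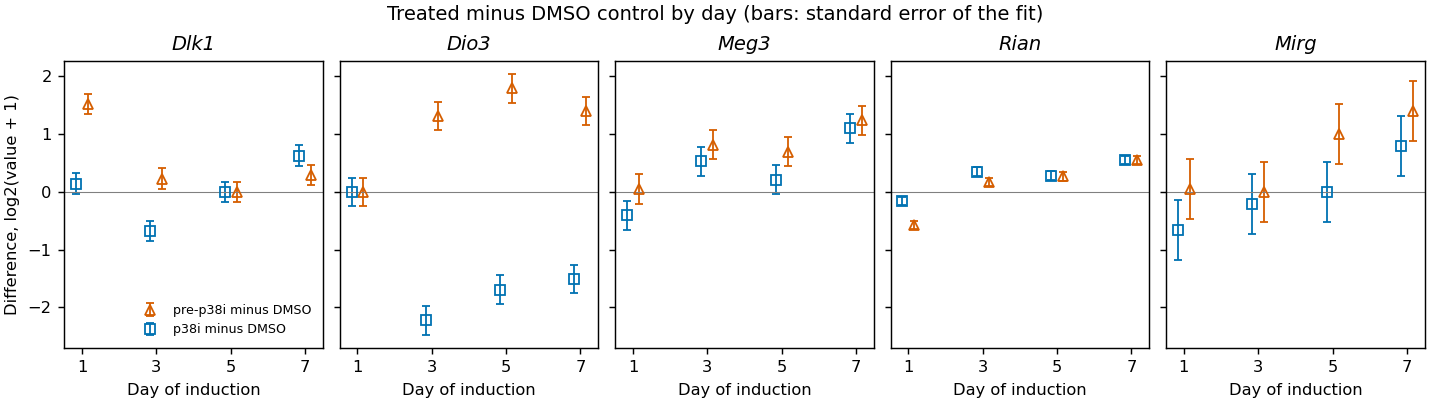
Difference of each treated group from the DMSO control of the same day on the log2(value + 1) scale, for the 5 members in the fit. Points are fitted differences of 2 against 2 libraries and bars the standard error, with triangles for pre-p38i and squares for p38i. Dio3 separates to 1.79 in pre-p38i and -2.23 in p38i, Rian runs from -0.58 to 0.55, and Meg3 ends above zero in both treatments.

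Pluripotency and epithelial markers moved in the same order as Dio3. The summed value of 14 pluripotency markers, which excluded the 3 transduced factors, was 10 to 11 in untreated MEFs and on day 7 was 184 to 199 in the control, 64 to 66 in p38i and 280 to 293 in pre-p38i. Of 9 pluripotency markers tested, 4 rose in pre-p38i and 6 fell in p38i against the control on that day, with none called the other way. Epithelial markers summed to 516 to 551, 221 to 241 and 1005 to 1048 in the same 3 groups, and of 10 tested 8 rose in pre-p38i and 10 fell in p38i. Fibroblast markers summed to 4873 to 5107, 6123 to 6167 and 3272 to 3444, and of 15 tested all fell in pre-p38i while 6 rose and 2 fell in p38i. Macrophage markers summed to 231 to 243, 195 to 231 and 40 to 51, and of 10 tested all fell in pre-p38i while 1 rose and 5 fell in p38i. The part of these cell states in the Dio3 values was not tested. Among 10664 genes whose mean reached 5, the 3 whose log2(value + 1) was most like that of Dio3 over the 28 libraries were Hs6st1 (a heparan sulfate sulfotransferase, Pearson's r 0.981), Zfp42 (Rex1, a marker of naive pluripotent cells, 0.980) and Btla (an immune receptor of lymphocytes, 0.974). In the 24 induction libraries alone the values of r were 0.979, 0.979 and 0.970. All libraries share 1 table and scale, and groups at 0 in both genes add to the likeness.

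Zfp42 took the same order of conditions as Dio3 on day 7, at lower values. It was 31 and 29 in the control on day 7, 7 and 9 in p38i, and 44 and 45 in pre-p38i. Dlk1 and Dio3, the outer genes of the locus, were negatively correlated, with r of -0.63 over 28 libraries and -0.58 over the 24 induction libraries. They did not mirror each other between conditions. On day 5 Dlk1 had a mean of 3.5 in each condition, while Dio3 had 5.5 in p38i, 19.5 in the control and 70 in pre-p38i. The 3 genes most like Dlk1 were Sertad1 (a transcriptional cofactor, r = 0.967), Slc38a4 (an amino acid transporter that is itself imprinted, 0.937) and Rhoa (a small GTPase of the cytoskeleton, 0.936). Slc38a4 went from 92 and 92 in untreated and 117 and 112 in inhibitor-treated MEFs to 1 to 3 on day 7.

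**Figure D3:**
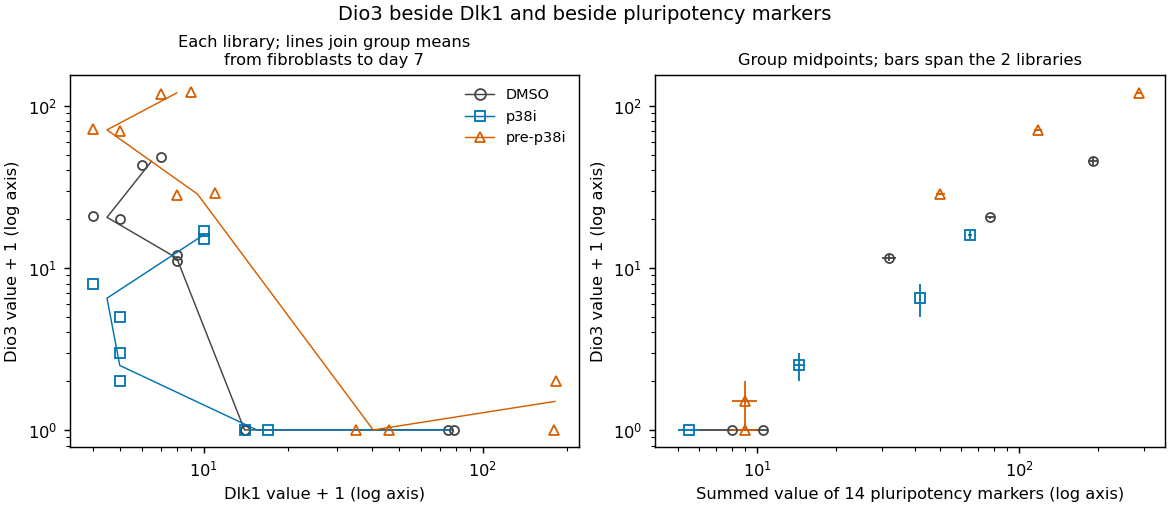
Left, Dio3 against Dlk1 in each library, as value + 1 on log axes, with lines joining group means from fibroblasts to day 7. Right, Dio3 against the summed value of 14 pluripotency markers, as group midpoints with bars spanning 2 libraries. Dlk1 drops before Dio3 appears, and on day 7 the groups take the order p38i, DMSO, pre-p38i on both axes of the right panel.

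Meg3 (ENSMUSG00000021268, chr12:109541001-109571726, plus strand, a long noncoding RNA) fell on the first day and partly recovered. Untreated MEFs had 57 and 86, and inhibitor-treated MEFs had 84 and 80, inside the untreated range. On day 1 the control was at 14 and 8, 6.50-fold lower than the fibroblasts, p38i at 10 and 6, and pre-p38i at 15 and 8, with all 3 overlapping. Other sets moved between fibroblasts and day 1 of the control as well. Of 15 fibroblast markers 9 fell and 5 rose, with a sum of 12243 to 12554 on day 1. All 6 neural markers tested rose, and the sum of that set went from 126 to 134 up to 858 to 869. All 3 chondrocyte markers tested fell. The part of these sets in the fall of Meg3, Rian and Dlk1 was not tested. The replicates of Meg3 on day 1 differed by more, in proportion, than those of any later day in the same condition.

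By day 7 Meg3 had parted from the control in both treated conditions. The control went from 12 and 11 (day 3) through 22 and 25 (day 5) to 16 and 18 (day 7). Pre-p38i had 22 and 20, 39 and 38, and 39 and 44 on the same days, each pair above the control. The p38i libraries had 18 and 16, 31 and 24, and 36 and 39, and overlapped the control on day 5. Neither the pre-p38i difference of day 5 (0.69) nor the p38i differences of days 3 and 5 (0.525 and 0.21) were called. On day 7 Meg3 was 2.44-fold above the control in pre-p38i (log2 difference 1.24, SE 0.25) and 2.21-fold in p38i (1.10, SE 0.25), and the 2 treated groups overlapped. Both day 7 calls held in every alternative, whereas the day 3 call in pre-p38i (0.82) was lost in 6 of 10, all 4 that left out a library among them.

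Part of the Meg3 sequence is shared with 2 other annotated genes, 1 of which overlaps Meg3 itself. At 95% identity over at least 200 bases, its transcripts matched Gm27000 on chromosome X (842 bases) and Gm26906 on the opposite strand of its own 3′ end (805 bases). Both genes were listed at 0 in all libraries. How reads were shared among them was not tested, and the other 5 members had no such match.

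Rian (ENSMUSG00000097451, chr12:109603940-109661716, plus strand), the long RNA that hosts snoRNAs, had the highest mean of the members in all 14 groups. It stood at 326 and 371 in untreated and 341 and 332 in inhibitor-treated MEFs, which overlapped. On day 1 it was 121 and 129 in the control, 2.79-fold lower than in the fibroblasts. Pre-p38i was lower still at 83 and 84 (log2 difference from the control -0.58, SE 0.07), while p38i had 116 and 107 (-0.16, not called). Rian was thus lowest on day 1 in the cultures that had the highest Dlk1.

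From day 3 the sign turned. The control had 90 and 89, 124 and 125, and 120 and 125 on days 3, 5 and 7. Pre-p38i had 103 and 99, 162 and 139, and 185 and 174, and p38i had 109 and 120, 155 and 148, and 173 and 188, each pair above both control libraries of its day. By day 7 the differences were 0.55 in pre-p38i and 0.55 in p38i (SE 0.07 each), or 1.47-fold and 1.47-fold, and the treated groups overlapped. These 2 calls held in every alternative. The day 5 call was lost in 3 of 10 in pre-p38i (0.27) and in 2 of 10 in p38i (0.28). On day 3 the p38i difference (0.35) was called and the pre-p38i difference (0.17) was not.

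Mirg (ENSMUSG00000097391, chr12:109729764-109749460, plus strand), the host of the distal microRNA cluster, was low. It had 7 and 9 in untreated and 9 and 10 in inhibitor-treated MEFs, and no induction library exceeded 6. On day 7 the control had 0 and 3, p38i 2 and 3, and pre-p38i 3 and 6. The control and pre-p38i met at 3, and although the fit called the log2 difference of 1.40 (SE 0.52), that call was lost in 5 of 9 alternatives, with control replicate 1 or pre-p38i replicate 2 left out among them. No order between conditions can be read from Mirg at this level.

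The 3 noncoding RNAs, known as maternal, were summed to follow them as a set. The sum was 428 ± 53.7 (SD, n = 2) in untreated MEFs, 139 ± 0 on day 1 and 141 ± 7.07 on day 7 of the control, 220.5 ± 13.4 in p38i on day 7 and 225.5 ± 2.12 in pre-p38i. The 2 treated groups differed by less than their spread and lay above the control. The sum of the 3 paternal genes did not follow. It was 76.0 ± 2.83 in untreated MEFs, and on day 7 it was 50 ± 4.24 in the control, 24.0 ± 1.41 in p38i and 126.0 ± 2.83 in pre-p38i.

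The makeup of the paternal sum changed from Dlk1 to Dio3. Dlk1 was 100% of it in untreated MEFs, and on day 7 Dio3 made up 89.0% ± 0.48 in the control, 62.4% ± 2.21 in p38i and 94.5% ± 1.00 in pre-p38i. Within the maternal sum Rian held between 78.6% and 92.2% of the value in every group mean. Meg3 and Rian varied together over the 28 libraries (r = 0.88) and over the 24 of induction (r = 0.76). Dkk3 (a secreted Wnt modulator, r = 0.903), Fscn1 (fascin, an actin-bundling protein, 0.905) and Ptprk (a receptor tyrosine phosphatase, 0.890) were the genes most like Meg3. For Rian they were Thap12 (0.922), Tnk2 (a tyrosine kinase, 0.919) and Mapkapk2 (a kinase that p38 activates, 0.918), which dropped to between 0.686 and 0.697 without the fibroblast libraries. For Mirg they were Evl (0.796), Marcksl1 (0.787) and Nsg1 (0.771).

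Counts of calls over the 5 members in the fit are set beside those of all genes as a description. Pre-p38i differed from the control on days 1, 3, 5 and 7 in 2 members (11.6% of all genes tested), 2 members (20.6%), 2 members (25.6%) and 4 members (29.9%). P38i differed from it on the same days in 0 members (16.1%), 3 members (21.4%), 2 members (26.6%) and 4 members (34.1%). All comparisons of a day share the same control libraries. Between the treated conditions the counts were 2 (28.2%), 2 (42.2%), 1 (47.5%) and 1 (54.3%), and Dio3 was the 1 member called on days 5 and 7.

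Along the control course, 3 members were called between fibroblasts and day 1 (55.5% of all genes), 3 from day 1 to day 3 (44.5%), 4 from day 3 to day 5 (19.4%) and 2 from day 5 to day 7 (26.7%). From the starting fibroblasts to day 7, all 5 were called in the control (66.8%) and in p38i (69.1%), and 4 in pre-p38i (68.4%), where Mirg was not. Over this span Dio3 rose and the other called members fell in each condition. Most genes tested were called over it too, so the share among the members is not a mark of the locus.

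Flanking genes give the surroundings of the locus. From 500 kb before Dlk1 to 500 kb after Dio3, the locus included, there were 110 other genes. Of these, 102 were listed at 0 in all libraries and 7 reached a mean of 1. Most of the genes at 0 were the 98 that lie between Dlk1 and Dio3, all at 0, and the 7 all lie outside the locus. Of the 7, Hsp90aa1 (a heat shock chaperone) alone was called in pre-p38i against the control on day 7, at a log2 difference of 0.14 (SE 0.04, adjusted p = 0.00588), a call that leaving out control replicate 1 or pre-p38i replicate 1 removed. In p38i Hsp90aa1 was lower (-0.31, adjusted p = 2.78e-06), and Begain, a neuronal scaffold gene upstream of Dlk1, was higher, at 39 against 23 (0.73, SE 0.19, adjusted p = 0.00458), a call lost without p38i replicate 2.

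Begain rose between fibroblasts and day 7, as Dio3 did. It was listed at 0 in untreated MEFs and at a mean of 23 on day 7 of the control (adjusted p = 2.02e-14), and Wdr25, its neighbour, went from 0.5 to 11.5 (log2 difference 3.14, SE 0.20, adjusted p = 2.36e-11). In pre-p38i on day 7 Begain had a mean of 18 and was not called (-0.34, SE 0.19, adjusted p = 0.189).

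**Figure D4:**
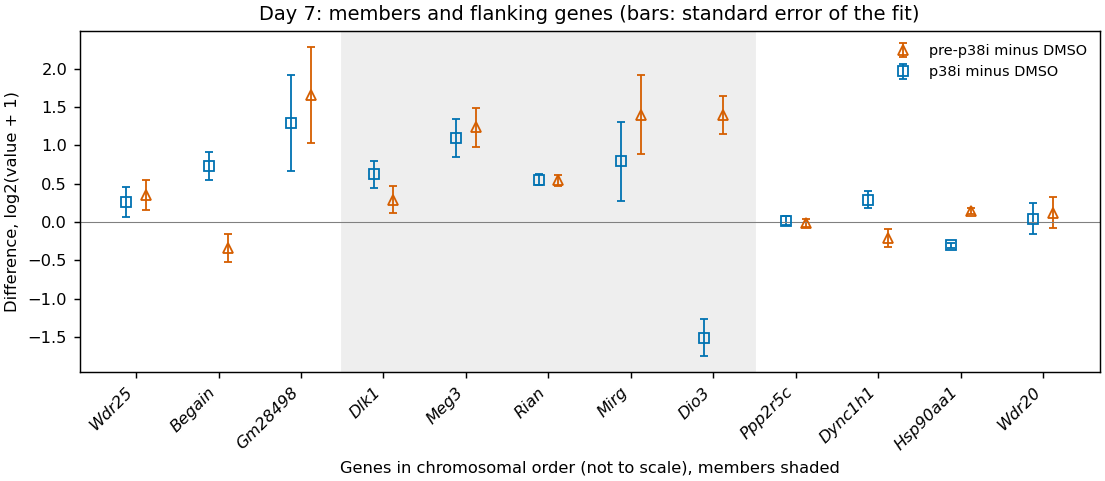
Differences from the DMSO control on day 7, log2(value + 1), for the 5 members in the fit (shaded) and the 7 flanking genes that reached a mean of 1, in chromosomal order and not to scale. Bars are standard errors of the fit, triangles pre-p38i and squares p38i. Dio3 is the member with opposite signs, 1.40 and -1.51, and Dlk1, Meg3, Rian and Mirg lie above zero in both. Dlk1 in pre-p38i and Mirg in both treatments overlapped the control.

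Genes of related pathways were counted over whole lists. Among all genes tested, 15.4% were called higher and 14.5% lower in pre-p38i against the control on day 7, 16.5% higher and 17.6% lower in p38i, and 9.73% higher and 8.15% lower in inhibitor-treated against untreated MEFs. Of 20 Notch pathway genes tested, the pathway that Dlk1 acts on, 4 rose and 3 fell in pre-p38i against the control on day 7 (median log2 difference 0.07, against 0.05 over all genes), and 2 rose and 5 fell in p38i (-0.17, against 0 over all genes). The 5 that fell in p38i became 1 to 3 when any library of that comparison was left out, the 4 that rose in pre-p38i became 2 without pre-p38i replicate 1, and the 3 that fell there became 1 without control replicate 2. Lfng, a glycosyltransferase that modifies Notch, was 30.5 in pre-p38i against 15.5 (0.93, SE 0.18, adjusted p = 0.00066), and 9.5 in p38i (-0.65, adjusted p = 0.00905, lost without control replicate 1 or p38i replicate 2). Notch1 was 12.5 in pre-p38i against 7 (0.75, adjusted p = 0.00268), and Notch4 was 29.5 against 56.5 (-0.91, adjusted p = 0.000211). In the fibroblasts, where Dlk1 was raised by the inhibitor, 5 of the list rose and 2 fell, and the 5 became 3 without MEF replicate 1, MEF replicate 2 or inhibitor-treated replicate 1, and 1 when those groups were fitted alone. Jag1, a Notch ligand, was 11.5 with the inhibitor against 31 (-1.35, SE 0.10, adjusted p = 1.17e-08).

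Of 17 genes of thyroid hormone transport, conversion and response, the system on which Dio3 acts, 2 rose and 1 fell in pre-p38i on day 7 (median 0), and 1 rose and 2 fell in p38i (median 0). The 2 that rose in pre-p38i became 1 without control replicate 1 or either pre-p38i replicate, and the 1 that rose in p38i became 2 without control replicate 2. The largest of these was Crym, a cytosolic thyroid hormone binding protein, which took the order opposite to Dio3. It was 381.5 in the control, 181 in pre-p38i (-1.07, SE 0.05, adjusted p = 1.29e-11) and 541.5 in p38i (0.50, SE 0.05, adjusted p = 5.26e-07). Secisbp2, which serves the insertion of selenocysteine into proteins such as Dio3, was 16 in pre-p38i against 10.5 (0.56, SE 0.14, adjusted p = 0.0043), a call lost without pre-p38i replicate 2.

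Of 17 genes that keep imprints or act on the locus, 12 rose and 1 fell in pre-p38i on day 7 (median 0.43, against 0.05 over all genes), and 1 rose and 11 fell in p38i (-0.38, against 0). The 12 that rose became 7 without pre-p38i replicate 1, 8 without control replicate 2, and 5 when those groups were fitted alone. Uhrf1, which guides maintenance methylation, was 41.5 in p38i against 96.5 (-1.20, SE 0.07, adjusted p = 1.42e-10). Ezh2, the catalytic subunit of Polycomb repressive complex PRC2, was 25.5 against 50 (-0.95, SE 0.09, adjusted p = 2.68e-07). In pre-p38i Jarid2, a PRC2 partner, was 60 against 37 (0.68, SE 0.17, adjusted p = 0.00508, lost without control replicate 1). Zfp57, which protects methylated imprints, was the 1 gene of the list that fell in pre-p38i, at 107 against 136 (-0.34, adjusted p = 0.0284). That call was lost without control replicate 2 or either pre-p38i replicate. In p38i Zfp57 fell as well (-0.52), a call that held in every alternative.

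Of 22 imprinted genes from other loci, 3 rose and 8 fell in pre-p38i on day 7 (median -0.17, against 0.05 over all genes), and 9 rose and 1 fell in p38i (0.17, against 0). Fitted with their own groups alone, the 8 became 5 and the 9 became 4. Peg10, a retrotransposon-derived paternal gene like Rtl1, was the gene of this list that moved as Dio3 did, with 47 in pre-p38i, 21 in the control and 5 in p38i (1.12 and -1.87, SE 0.09, adjusted p = 1.38e-08 and 2.19e-11). H19, a maternal noncoding RNA, was 719.5 in p38i against 322.5 (1.16, SE 0.07, adjusted p = 4.3e-10). Nnat was 174.5 in pre-p38i against 84 (1.05, SE 0.08, adjusted p = 6.01e-09), and Ndn was 14.5 against 30.5 (-1.03, SE 0.09, adjusted p = 5.95e-08). In the fibroblasts 8 rose with the inhibitor and 1, Sgce, fell, a call lost in 8 of 10 alternative fits and in each that left out a library. Mest, a paternally expressed gene, went from 33.5 to 93 (1.45, SE 0.09, adjusted p = 3.99e-10) beside the rise of Dlk1.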

How the data were processed

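Expression was measured by RNA-seq in 28 mouse libraries, 2 in each of 14 groups taken from the sample titles. The deposited table holds 1 whole-number score per gene and library, read here as TPM that the authors rounded down, because library totals lie between 991287 and 992537. The submitters' processing notes list bcl2fastq, Bowtie2 2.2.5, RSEM 1.3.0 and the builds mm10 and hg38, of which the table's coordinates are mouse. Labels and methods differ on the library kit and on RNA extraction, and neither states a strand setting. RSEM assigns reads that match several genes by likelihood, which could affect Meg3 through the genes that share its sequence. Rounding down sets the precision of Mirg and Rtl1.

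The members, gene lists and tests were chosen with earlier results of these data known. Differences were fitted with limma 3.58.1 (R 4.3.3; lmFit, eBayes with trend) on log2(value + 1) over all 28 libraries for 13230 genes (mean value of 1 or more), with Benjamini-Hochberg adjustment over these genes and a threshold of 0.05. This scale understates changes of low genes. P-values weigh a difference against the spread between the 2 libraries within a group, pooled over all 14 groups and moderated across genes. The text names the 6 members, the genes within 500 kb that pass this filter, the 3 genes most correlated with each member in the fit (mean of at least 5), and from each list the 2 largest rises and falls (mean of at least 5, groups not overlapping) in inhibitor-treated MEFs and on day 7, from which examples are printed. Promoters and microRNAs were read from RefSeq tables (GRCm38.p6), gene types from GENCODE M21 (99.6% of identifiers matched) and shared sequence from BLAST 2.17.0+. The fit was repeated without a filter, with a higher minimum (mean of 5), a pseudocount of 0.1, quantile normalization, a replicate block, only the groups compared, and with each library left out. The fit was tested on simulated data first. Replicate numbers did not pair the libraries: deviations from the group means of same-numbered libraries correlated between -0.0838 and 0.0874. Pictures were drawn with matplotlib 3.10.9.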

Additional observations from a re-analysis of the deposited data

Results flagged for a closer look

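4 results of the members went one way on one day and the other way on another, with both libraries on each side. The difference between days was not tested in any of them, and groups of 2 libraries allow no check for a single outlying library. How often other genes switch in this way was not counted, so the number is not a mark of the locus. Rian in pre-p38i against the DMSO control had log2 differences of -0.58, 0.17, 0.27 and 0.55 on days 1, 3, 5 and 7. In p38i, Rian had -0.16, 0.35, 0.28 and 0.55 over the same days. Dlk1 in p38i had -0.68 on day 3 and 0.63 on day 7. Rtl1 in p38i had -1.58 on day 1 (0 and 0 against 2 and 2) and 1.00 on day 5 (1 and 1 against 0 and 0), with values near the step of rounding.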

How the results depend on the processing

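Of the 52 member calls over 20 comparisons, 28 held in every alternative and 8 were lost only when the 2 groups of a comparison were fitted alone, where fewer libraries estimate the spread. No member's difference that was called reversed. Fitted alone, the calls against DMSO went from 10 to 6 in pre-p38i and from 9 to 4 in p38i, and those along the DMSO course from 12 to 8. Leaving out 1 library gave 8 to 11 calls in pre-p38i and 8 to 10 in p38i against DMSO, 6 to 7 for p38i against pre-p38i (6), 1 to 2 in MEFs (1), 10 to 15 along the course and 12 to 15 from the start to day 7 (14). With no filter on low values, p38i against pre-p38i gave 9 calls. The replicate block, over numbers that share only a number, gave 11 and 10 calls against DMSO, 8 between treatments and 14 along the course. Quantile normalization moved the median of all genes by 0.12 on day 3 and 0.10 on day 5 in p38i against DMSO, by 0.21 and 0.14 against pre-p38i, and by -0.30 from untreated MEFs to day 7 of the control. On day 3 it took the share of higher calls in p38i against DMSO from 24.4% to 50% and in pre-p38i from 66.7% to 50.7%. A mean of at least 5 removed Mirg as well as Rtl1. Depth is unknown, so values of 0 to 3 set no limit on expression.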
